A study of Klebsormidium nitens with 4 samples.

Results

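Transcripts that are plentiful in dim light and scarce after a shift to strong light were examined in *Klebsormidium nitens* strain NIES-2285, a filamentous charophyte alga. Of the 17290 genes in the table, 43 were chosen by a rule on the measured values. The rule takes r, the mean FPKM in high light plus 1 over the mean FPKM in low light plus 1, and keeps genes with r of at most 0.25 and a mean of at least 50 FPKM in low light. Both high light values also had to lie below both low light values, as they do in 33.1% of all genes and 58.8% of those with at least 50 FPKM in low light, with a value above 0 in at least 1 high light library, and genes identified in the study's text were left out. FPKM scales the fragments of a gene by transcript length and by the size of the library, so levels of different genes can be set side by side.

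Cultures in Bold's Basal Medium at 20 ºC with 1% CO2 were kept at 50 µE per square metre and second (low light) or given 1500 µE for 3 h (high light), with 2 independent replicates per condition of this strain. Polyadenylated RNA of each was sequenced, and the FPKM of the 4 libraries sum to between 620013 and 660467. The depth behind a single value is unknown, because FPKM hold no read counts. The treatment left its mark on the labelled libraries: PsbS, a protein that triggers heat dissipation in plants, was at 9.15 and 5.97 FPKM in low light and at 832 and 899 FPKM in high light. In bulk RNA, fewer transcripts per cell and fewer cells that make them cannot be told apart.

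In green algae and plants, chlorophyll-binding antenna proteins (LHCA on photosystem I, LHCB on photosystem II) collect light, and the Calvin-Benson cycle spends the resulting ATP and NADPH on fixing CO2. The nuclear genes of both systems are known to respond to irradiance, and antenna genes in particular are commonly turned down when light exceeds what the cell can use. Roles given here are those of the best BLAST hit in *Arabidopsis thaliana* or *Chlamydomonas reinhardtii* in the study's lists of differentially expressed genes. A best hit names the most similar gene of another species and does not establish function in *K. nitens*.

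The members covered a wide range of abundance. Mean FPKM ran from 52.8 to 10991 in low light, with a median of 88.7, and from 5.25 to 1775 in high light, with a median of 15.9. The median of r was 0.202 and its range 0.0696 to 0.249, against a median r of 0.836 over the 2182 genes with at least 50 FPKM in low light, of which the members are 1.97%. In no member did the higher high light value exceed 0.280 of the lower low light value. These numbers describe the choice and are not tested. By abundance rank among all genes, the median member went from 1190 in low light to 5047 in high light, and the number in the top 1000 from 18 to 2. The median of the genes detected in high light was 12.9 FPKM, and 29 members still lay above it, so most of them stayed at or above the level of a typical expressed gene.

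**Figure D1:**
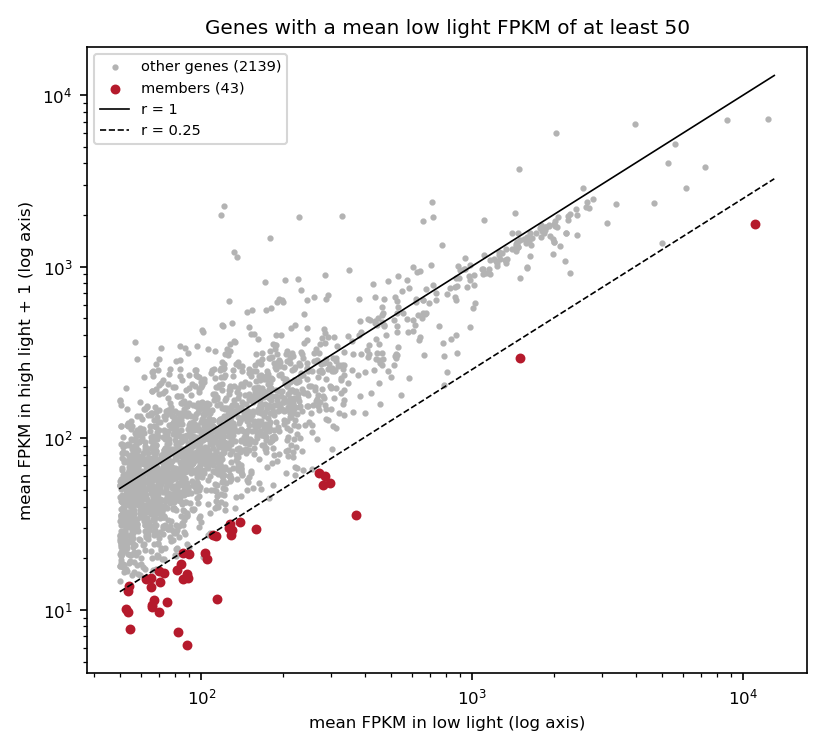
Mean FPKM in low light (x axis, log) against mean FPKM in high light plus 1 (y axis, log) for the 2182 genes with a mean of at least 50 FPKM in low light, 1 point per gene. The 43 members (red) lie on or under the dashed line of r = 0.25, and the other genes (grey) scatter around a median r of 0.836, just under the solid line of r = 1.

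Together the members took 2.60% ± 0.055 of the summed FPKM of the low light libraries, compared with 0.471% ± 0.0090 after high light (SD, n = 2 each). The gene kfl00544_0040, for which no best hit is listed, made up most of this share, with 1.67% ± 0.040 before and 0.286% ± 0.0099 after the shift (SD, n = 2 each). Without it the other 42 genes took 0.935% in low light and 0.185% in high light. Every member was chosen for a low r, so a lower sum in high light follows from the rule.

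At the thresholds, the values pass smoothly from members to non-members. The members closest to the limit on r were kfl00375_0070 at 0.249 and kfl00030_0180 at 0.248, and the nearest genes beyond it were kfl00064_0090 at 0.251 and kfl00319_0040 at 0.251. By abundance, kfl00189_0070 at a mean of 52.8 FPKM in low light and kfl00233_g20 at 53.7 FPKM were just inside. Just outside were kfl00172_0020 at 49.99 FPKM with r of 0.0701 and kfl00022_0260 at 49.96 FPKM with r of 0.183. A scaling of the libraries to equal medians moves the median r of all detected genes from 0.842 to 0.965 (0.20 on the log2 scale) and that of the members from 0.202 to 0.234, and 25 of the 43 members then meet the rule. Of the 18 that do not, 16 had r of at least 0.217, and the others, kfl00344_0010 and kfl00189_0070, were near the minimum of abundance.

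In a limma model over all 17290 genes, 40 of the 43 members were called repressed, with a log2 fold change of -1 or less and an adjusted p below 0.05. The background was 607 genes, 3.51% of all genes tested, 5.42% of the genes with a mean of at least 1 FPKM in a condition and 11.5% of those with at least 50 FPKM in low light. The rule used the same contrast, so nothing is read from this count. The 3 members not called are kfl00002_0370, kfl01187_g2 and kfl00344_0010. When a library was left out, 4 members were called in the absence of low light replicate 1, 4 in that of low light replicate 2, 6 in that of high light replicate 1 and 7 in that of high light replicate 2. The same fits called 242, 236, 81 and 75 of all genes repressed. The log2 fold change was -1 or less in all 43 members in each of these fits. Exact permutation of 2 against 2 libraries gives no two-sided p under 0.333 for a gene, and was not used.

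Antenna and photosystem I genes are the best hits of 5 members. The member most like LHCB2, kfl01434_0010, is by far the most abundant of them. It had 1539 and 1470 FPKM in the low light libraries and 285 and 303 FPKM in the high light libraries, 5.11 times less on average. It was the 64th most abundant gene in low light and the 301st in high light, and both pairs of replicates were close. The match to LHCB1, kfl00098_0090, had 89.0 and 74.1 FPKM in low light and 15.9 and 16.5 FPKM in high light. This is a small fraction of the kfl01434_0010 level in both conditions, yet r was nearly equal, 0.208 and 0.196.

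Members that match photosystem I antenna genes had the lowest r of this group. Among listed repressed matches outside the set, r was 0.387 for kfl00517_0030 (LHCA1), 0.327 for kfl00560_0090 (LHCA3) and 0.122 for kfl00564_0030 (LHCA2). The rule leaves out genes with r above 0.25, so this order does not describe the photosystem I antenna as a whole. The match to LHCA1, kfl00517_0040, had 72.7 and 66.6 FPKM in low light and 7.10 and 10.5 FPKM in high light, and that to LHCA4, kfl00023_0070, had 58.5 and 50.7 FPKM in low light and 7.35 and 6.09 FPKM in high light. Their mean FPKM was 7.94 and 8.13 times higher in low light. The fifth gene, kfl00519_0080, matches PsaK, a small membrane subunit of photosystem I near the attachment of its antenna. Its values of 97.4 and 82.6 FPKM in low light and 22.5 and 18.1 FPKM in high light give r of 0.234, the highest of the 5, and it is the only gene of this group that does not meet the rule after median scaling.

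**Figure D2:**
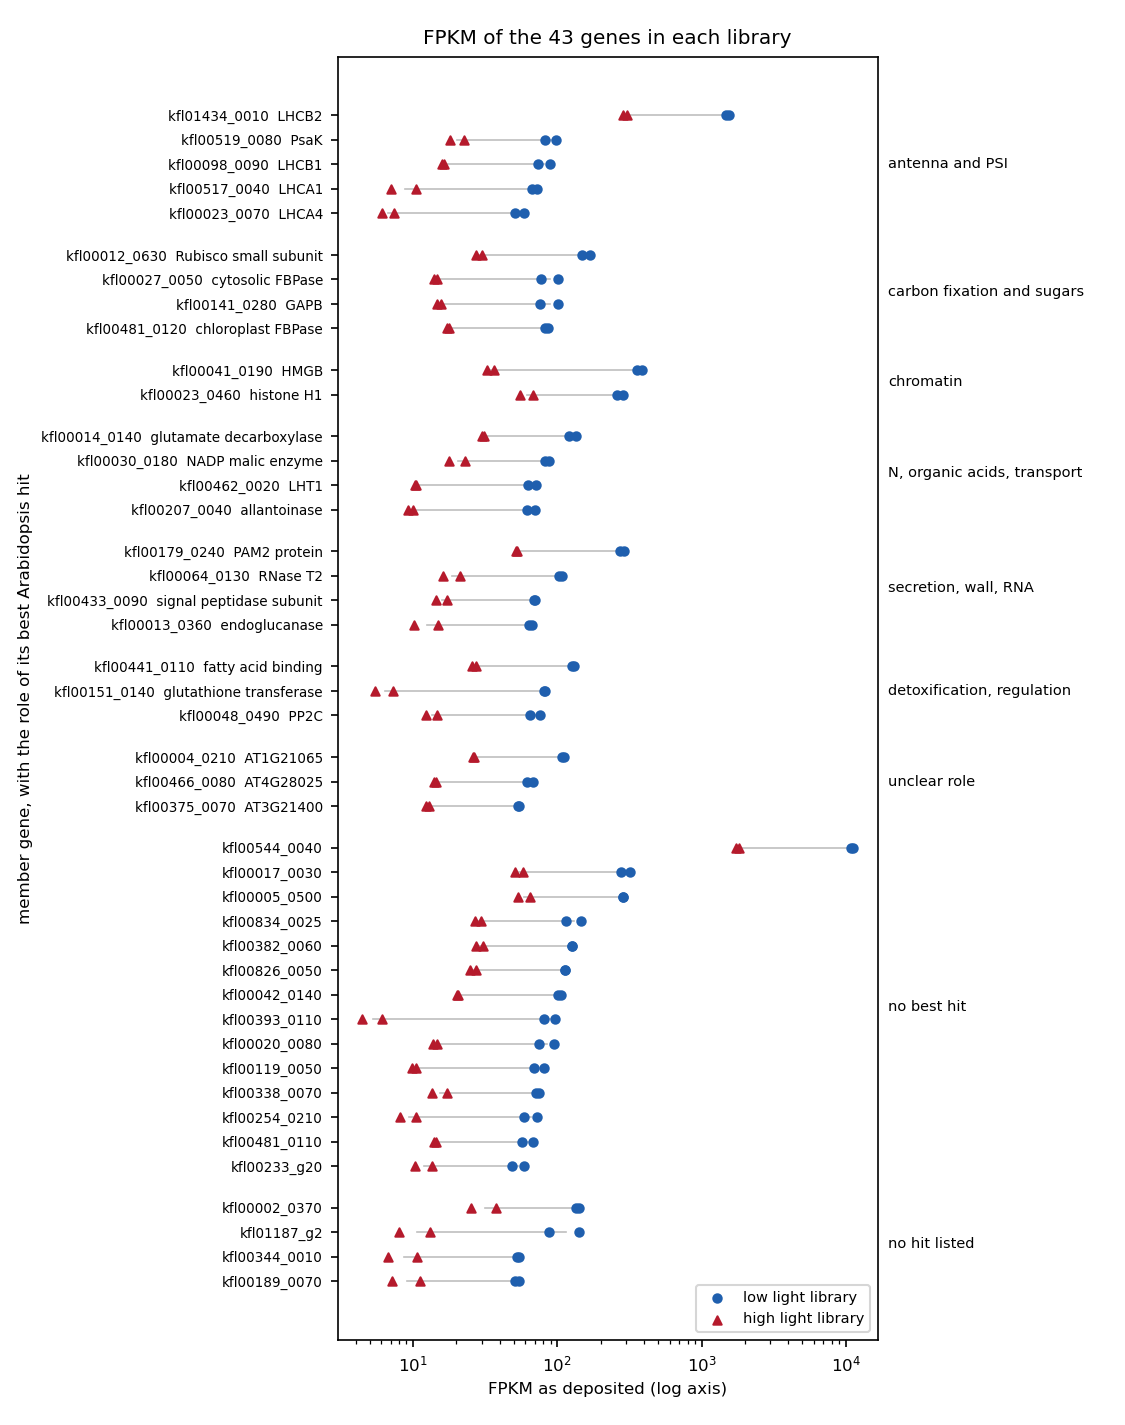
FPKM (x axis, log) of each of the 43 members in the 2 low light libraries (blue circles) and the 2 high light libraries (red triangles), with a grey line between the condition means and genes grouped by the role of their best hit. Red and blue marks do not overlap in any row, as the rule requires. High light replicates lie farthest apart in the 4 genes at the bottom, which are absent from the study's lists.

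Relatives of these genes outside the set were examined as well. In the lists of differentially expressed genes, 9 genes have a best hit among the Arabidopsis LHCA and LHCB genes, of which limma called 8 repressed and 1 activated. The lists hold only genes that passed the study's own thresholds on these libraries, so these counts are no independent evidence of direction. The activated gene, kfl00478_0030, has LHCA2 as its best hit but is named LHCSR, a stress-related antenna protein, in the study. It was at 2152 and 1901 FPKM in low light and at 5646 and 6359 FPKM in high light.

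The LHCA1 member has a neighbour with the same best hits, kfl00517_0030, at 195 and 185 FPKM in low light and 73.7 and 72.2 FPKM in high light. The ratio of the member to this neighbour, which no scaling of libraries can alter, was 0.373 and 0.360 in low light, against 0.0963 and 0.145 in high light. The rule fixes the direction of this ratio, since the neighbour has over 50 FPKM in low light and is outside the set because its r is above 0.25, so the ratio is given as a description. The LHCB1 member and its neighbour kfl00098_0080, which is LHCB1 in the study, had a ratio of 0.830 and 0.770 in low light, against 0.738 and 0.955 in high light. That neighbour also has r under 0.25 and is left out because the study's text identifies it. A gene matching LHCA2, kfl00564_0030, shares the Chlamydomonas best hit of the LHCA4 member and was less abundant, at 37.1 and 39.6 FPKM in low light and 3.86 and 3.74 FPKM in high light. It is outside the set only because its low light mean was 38.3 FPKM. How the authors' mapping divided reads between near-identical copies is not given in the sources used here, and values of such copies are uncertain to that extent.

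Further photosystem I core subunits were looked at only where the lists hold them. Of 7 listed genes with such a best hit, limma called 6 repressed and 1 activated, and only the PsaK match has r of at most 0.25. The other 5 repressed genes, which match PsaD, PsaE, PsaF, PsaH and PsaO, had r between 0.276 and 0.407. The activated gene, kfl01175_0030, also matches PsaO, and its values were 130 and 124 FPKM in low light and 351 and 352 FPKM in high light.

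Enzymes of carbon fixation and sugar phosphate metabolism are the best hits of 4 members. Rubisco, which fixes CO2, has its small subunit encoded in the nucleus, and the member kfl00012_0630 matches such a gene. It was at 169.5 and 148 FPKM in low light and 27.3 and 30 FPKM in high light. The match to GAPB, a chloroplast glyceraldehyde phosphate dehydrogenase subunit that takes part in regulating the enzyme in plants, is kfl00141_0280. Its low light values of 101 and 76.2 FPKM were farther apart than its high light values of 15.5 and 14.8 FPKM.

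Both fructose bisphosphatases of the set share a Chlamydomonas best hit but differ in the Arabidopsis gene they resemble. The match to the chloroplast enzyme of the Calvin-Benson cycle, kfl00481_0120, had 82.5 and 86.2 FPKM in low light and 17.8 and 17.3 FPKM in high light. The match to the cytosolic enzyme of sucrose synthesis, kfl00027_0050, had 76.9 and 102 FPKM in low light and 14.6 and 14 FPKM in high light. They were thus at similar levels in each condition and were 4.81 and 6.25 times lower in high light.

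Other copies of the same enzymes were more abundant than the members in both conditions. Of the 2 further listed genes for the Rubisco small subunit, kfl00093_0320 had 604 and 561 FPKM in low light and 223 FPKM in each high light library. The other, kfl00117_0060, had 566 and 528 FPKM in low light and 185 and 170 FPKM in high light. The ratio of the member to the sum of both was 0.145 and 0.136 in low light, against 0.0669 and 0.0764 in high light. For GAPB against the gene matching GAPA, kfl00100_0310, it was 0.319 and 0.248 in low light, against 0.133 and 0.132 in high light. The other copies are abundant and outside the set because of r above 0.25, so the rule fixes the direction of both ratios, and nothing is read from it. All 9 listed genes with a best hit in the Calvin-Benson cycle were called repressed by limma, in lists chosen on these libraries. The 3 members among them had r of 0.180, 0.186 and 0.217, and the other 6, matching GAPA, PGK, the Rubisco small subunit, SBPase and transketolase, had r between 0.325 and 0.384. This gap restates the rule, since all 6 have over 50 FPKM in low light.

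**Figure D3:**
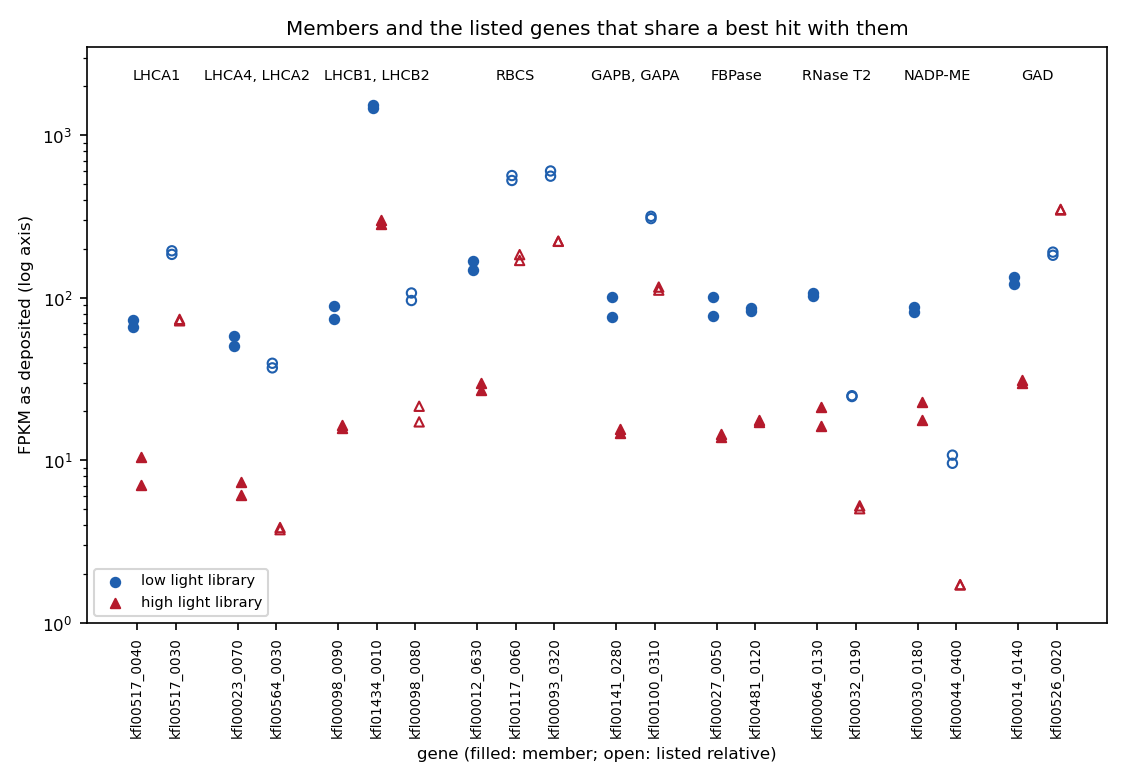
FPKM (y axis, log) in the 2 low light (blue circles) and the 2 high light libraries (red triangles) of members (filled) and of listed genes that share a best hit with them (open), by family. The open genes of the LHCA1, RBCS and GAPB families stand above the member in both conditions and, as the rule requires of abundant genes outside the set, have r above 0.25, whereas the open glutamate decarboxylase gene at the right is higher in high light, at 347 and 351 FPKM, than in low light, at 191 and 183 FPKM.

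Chromatin proteins are represented by a pair of abundant genes. The member kfl00041_0190 matches a plant HMGB protein, a small DNA-bending protein of chromatin, and was at 358 and 386 FPKM in low light and 36.4 and 32.7 FPKM in high light. On average it was 10.8 times lower after the shift, and in low light only kfl00544_0040 and kfl01434_0010 were more abundant among the members. The match to linker histone H1, kfl00023_0460, which binds the DNA between nucleosomes, was at 284 and 259 FPKM in low light and 68.4 and 55.2 FPKM in high light. With r of 0.230 it is near the limit of the rule, and the HMGB gene with r of 0.0953 is far from it.

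Another 4 members match genes of nitrogen and organic acid metabolism or of amino acid uptake. Allantoinase, which opens the ring of allantoin in the recovery of nitrogen from purines, is the best hit of kfl00207_0040, with 69.7 and 61.8 FPKM in low light and 9.25 and 10 FPKM in high light. LHT1, an amino acid importer of the plasma membrane, is that of kfl00462_0020, with 71.3 and 62.5 FPKM in low light and 10.4 and 10.6 FPKM in high light. Likeness between profiles was measured over the 4 libraries, and it mostly reflects the fold on which the members were chosen. By Euclidean distance between log2(FPKM + 1) values centred on the mean of each gene, these genes were the nearest of the 2181 other abundant genes to kfl00544_0040, at 0.0865 for kfl00207_0040 and 0.120 for kfl00462_0020, over 4 libraries. The same measure put kfl00179_0240 and kfl00042_0140 nearest to the LHCB2 match kfl01434_0010, at 0.10 and 0.104. For the HMGB gene kfl00041_0190 the nearest were kfl00151_0140 and kfl00393_0110, at 0.202 and 0.495. These 6 are themselves members, which follows largely from that choice.

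Glutamate decarboxylase, which makes the amino acid GABA, is the best hit of kfl00014_0140. It was at 134 and 121 FPKM in low light and 29.9 and 31.3 FPKM in high light. A listed gene with the same Chlamydomonas hit, kfl00526_0020, went the other way, from 191 and 183 FPKM in low light to 347 and 351 FPKM in high light. The ratio of the member to this gene was 0.701 and 0.661 in low light, against 0.0860 and 0.0893 in high light, again a description, since the member was chosen for its low r. The match to NADP malic enzyme, kfl00030_0180, which turns malate into pyruvate with release of CO2, had 82.4 and 87.9 FPKM in low light and 23.0 and 17.8 FPKM in high light. Its listed relative kfl00044_0400 was at a far lower level in both conditions, 9.59 and 10.8 FPKM in low light and 1.71 and 1.72 FPKM in high light.

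Among matches to secretory, wall and RNA-related genes, kfl00179_0240 was the most abundant, with 292 and 272 FPKM in low light and 52.4 and 51.7 FPKM in high light. Its Arabidopsis hit carries a PAM2 motif, by which proteins bind poly(A)-binding protein. The match to the ribonuclease RNS2, kfl00064_0130, an enzyme of the RNase T2 family that degrades RNA in the vacuole in plants, was at 108 and 102 FPKM in low light and 16.2 and 21.4 FPKM in high light. A second listed match to RNS2, kfl00032_0190, had 25 and 24.7 FPKM in low light and 5.25 and 5.04 FPKM in high light, and their ratio overlapped between conditions. A small subunit of the signal peptidase that trims secreted proteins, kfl00433_0090, had 69.8 and 69.2 FPKM in low light and 17.2 and 14.5 FPKM in high light. The match to a glycosyl hydrolase family endoglucanase, kfl00013_0360, an enzyme that cuts cellulose-like glucans, had 66.7 and 63.8 FPKM in low light and 10.2 and 14.8 FPKM in high light.

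Genes of detoxification and regulation are the best hits of 3 members. The glutathione transferase match kfl00151_0140 had 82.9 and 81.1 FPKM in low light and 7.31 and 5.5 FPKM in high light. With a mean 12.8 times higher in low light, it had the second lowest r of all members. Such enzymes attach glutathione to reactive compounds. The match to WIN2, a protein phosphatase of the PP2C family, is kfl00048_0490, with 76.4 and 64.6 FPKM in low light and 14.6 and 12.4 FPKM in high light. The match to a fatty acid-binding protein with the chalcone isomerase fold, kfl00441_0110, had 130.2 and 126 FPKM in low light and 27.2 and 25.6 FPKM in high light. For kfl00004_0210, kfl00466_0080 and kfl00375_0070 the role of the best hit is unclear, and all 3 lie near the limit, with r of 0.246, 0.231 and 0.249. The most abundant of them, kfl00004_0210, had 108 and 112 FPKM in low light and 26.3 and 26.4 FPKM in high light.

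A large part of the set could not be described by similarity. In the lists, 14 of the 39 members found there (35.9%) have neither an Arabidopsis nor a Chlamydomonas best hit, against 142 of all 678 listed repressed genes (20.9%), a difference given as a description. The most abundant member is among these 14. The gene kfl00544_0040 had 11204 and 10779 FPKM in low light and 1732 and 1818 FPKM in high light, and ranked 2nd of all genes in low light and 34th in high light. Even after the reduction it was above every other member in either condition. Next in abundance were kfl00017_0030, with 277 and 317 FPKM in low light and 57.5 and 50.6 FPKM in high light, and kfl00005_0500, with 285 and 287 FPKM in low light and 53.8 and 64.4 FPKM in high light.

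The lowest r of all belonged to kfl00393_0110, another gene without a best hit. It was at 80.9 and 96.6 FPKM in low light and at 6.06 and 4.44 FPKM in high light, 16.9 times lower on average. The remaining 10 genes without a best hit are kfl00834_0025, kfl00382_0060, kfl00826_0050, kfl00042_0140, kfl00020_0080, kfl00119_0050, kfl00338_0070, kfl00254_0210, kfl00481_0110 and kfl00233_g20. Their mean FPKM lay between 53.7 and 130.2 in low light and between 9.32 and 29.03 in high light. Of these kfl00119_0050 had the lowest r, 0.148, and kfl00481_0110 the highest, 0.240.

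The other 4 members are absent from the study's lists, and their replicates were farther apart in high light. The gene kfl00002_0370 had 142 and 136 FPKM in low light and 37.5 and 25.3 FPKM in high light. The gene kfl00344_0010 had 52.8 and 54.6 FPKM in low light and 10.8 and 6.69 FPKM in high light, and kfl00189_0070 had 50.9 and 54.7 FPKM in low light and 7.15 and 11.1 FPKM in high light. These 3 were close in low light, whereas kfl01187_g2 differed in both conditions, with 87.8 and 140.4 FPKM in low light and 13.1 and 8.06 FPKM in high light. In high light the larger value was at least 1.4 times the smaller in all 4, and in only 2 of the other 39 members. Over all members the larger replicate value was at the median 1.09 times the smaller in low light and 1.12 times in high light, against 1.08 and 1.07 over the 2182 abundant genes.

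Position on the scaffolds was not part of the rule. In the gene order of assembly ASM70883v1, 41 of the 43 members could be placed, and they have 76 direct neighbours that are not members. Of these, 6 (7.89%) were called repressed and 7 (9.21%) activated by limma, against 3.51% and 4.00% of all genes. Over the 65 neighbours with a mean of at least 1 FPKM in a condition the shares were 9.23% and 10.8%, against 5.42% and 6.12% of all such genes. Among these 65 neighbours the median r was 0.772, against 0.842 for all 11201 such genes, 20% had r of at most 0.5, against 19.2% of those genes (12.4% of all), and 10.8% had r of at least 2, against 8.12%. The share with r of at most 0.5 is near that of all such genes. The share with r of at least 2 and the limma shares in both directions are above theirs, and these differences were not tested. Fewer of the 76 neighbours were called repressed in each fit that left out a library and so held 1 library in a condition.

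Of the 6 repressed neighbours, kfl00098_0080 and kfl00517_0030 are the antenna copies described above. The first of them counts as a non-member only because the study's text identifies it. The others are kfl00189_0080, kfl00382_0050, kfl00481_0130 and kfl00519_0090, of which kfl00382_0050 was the most abundant, at 238 and 211 FPKM in low light and 68.1 and 63.6 FPKM in high light. The call of kfl00189_0080 rests on low values, 2.53 and 2.68 FPKM in low light and 0 FPKM in both high light libraries. Only 1 pair of members is adjacent, the chloroplast fructose bisphosphatase match kfl00481_0120 and the gene without a best hit kfl00481_0110, which had 68.0 and 57.1 FPKM in low light and 14.5 and 14 FPKM in high light. The gene on the other side of kfl00481_0120, kfl00481_0130, matches a subunit of pyruvate dehydrogenase and was lower too, at 74.7 and 65.5 FPKM in low light and 28.5 and 26.6 FPKM in high light. Members also lie beside genes called activated. Next to kfl00004_0210, the gene kfl00004_0220 had 10.4 and 12.3 FPKM in low light and 60.3 and 60.4 FPKM in high light. Next to the LHT1 match kfl00462_0020, the gene kfl00462_0010 had 5.02 and 5.97 FPKM in low light and 25.7 and 32.2 FPKM in high light.

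**Figure D4:**
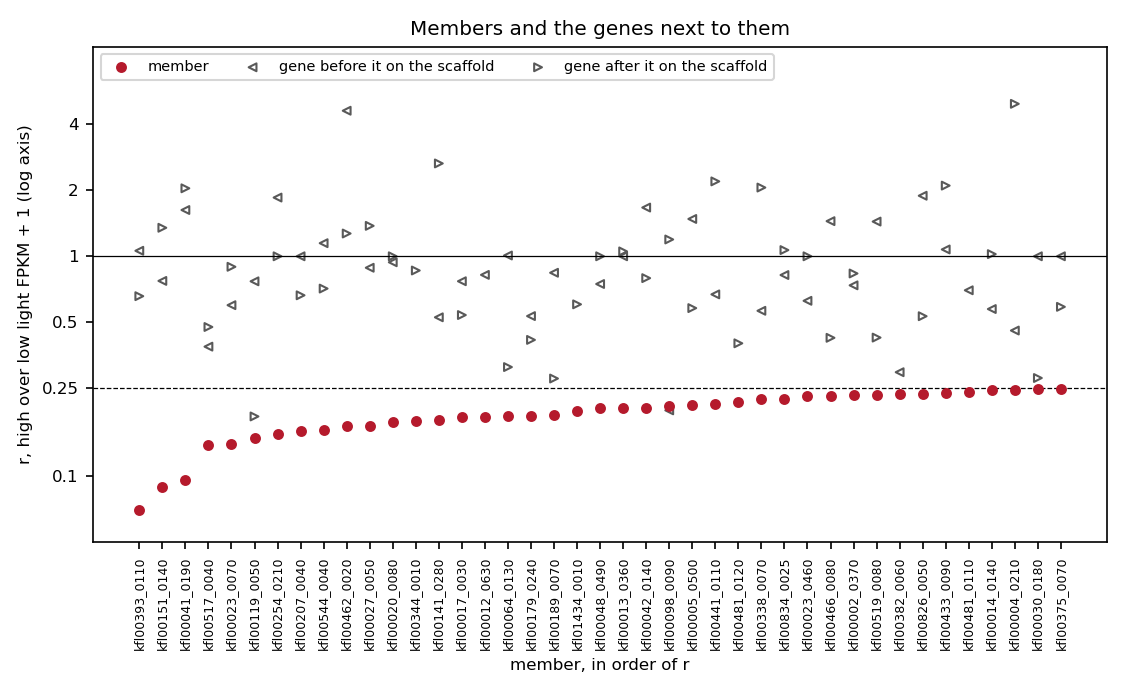
The ratio r (y axis, log) of the 41 members placed on a scaffold, in increasing order (red), and of the non-member genes directly before and after each (open triangles). Members lie between 0.0696 and 0.249, whereas the neighbours spread from 0.186 to 4.96. The lowest, kfl00119_0060, had 8.75 FPKM in low light replicate 1 and 0 FPKM in the other libraries. Neighbours at 0 FPKM in every library lie on the line of r = 1. The 65 neighbours with a mean of at least 1 FPKM in a condition had a median r of 0.772, below that line.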

How the data were processed

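Per the labels and the study's methods, the authors checked reads with FastQC, mapped them with HISAT2 and quantified genes with StringTie. They used the MARACAS pipeline with genome and annotation version 1.0, and the deposited values are FPKM per gene and library. The study also states quantile normalization. The deposited values were taken as not quantile normalized, because their sums differ between libraries, from 620013 to 660467. Tool versions are not given in the sources used here. All 4 libraries were matched to a sample by name. Depth per gene is unknown.

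The members, role groups and pathway lists were chosen with earlier results of these data known, and the antenna, photosystem I and Calvin-Benson lists were made from Arabidopsis identifiers after values had been seen. Every member is named. Values in each library are given for members with a known role, the most abundant, those with the lowest r, and those absent from the study's lists. Relatives were taken by a shared best hit. Of the lists only the best hits and membership were used, and their fold changes and p-values were not.

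For the test, log2(FPKM + 1) of all 17290 genes was quantile normalized and compared in limma 3.58.1 under R 4.3.3 (moderated variance, no trend, Benjamini-Hochberg adjustment). A run on simulated data gave every expressed gene the same spread, so it cannot show that calls on these libraries are sound. SDs are over 2 libraries. The limma p-values rest only on the spread between replicates, that of each gene moderated toward that of all genes fitted. Figures were drawn with matplotlib 3.10.9 in Python 3.11.15. Gene order came from a table of assembly ASM70883v1, in which 16199 loci were matched by number, and coordinates were not used. Planned searches for homologous proteins and promoter motifs were not run, because no sequences were used here. Alternatives covered the thresholds of the rule, the pseudocount, a filter, normalization, a variance trend, a replicate block and each library left out.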

Additional observations from a re-analysis of the deposited data

How the results depend on the processing

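The rule chose 21 genes at r of at most 0.2, 74 at 0.3, 85 with a low light minimum of 25 FPKM, 18 with a minimum of 100 FPKM, 25 after median scaling (all among the 43) and 42 to 51 with each library left out. The median r of the members was 0.192 without a pseudocount, 0.234 with median scaling and 0.196 to 0.209 in leave-one-out runs. On 3 libraries, where the lone library is assumed to vary like the other condition, limma called 4 to 7 members, 75 to 242 of all genes and 0 to 2 neighbours repressed (without high light replicate 1, 0 neighbours, with 30 at an unadjusted p below 0.05). With a filter at a mean of 1 FPKM, 1222 of 11201 genes and 10 of 65 neighbours were called repressed. The filter leaves fewer genes to adjust over, and also changes which genes enter the normalization and the moderated variance. Which of these raised the counts was not tested. At an adjusted p below 0.01, 0 members, 25 of all genes and 0 neighbours were called repressed. With a log2 fold change of -1 or less, 43, 1136 and 9 had an unadjusted limma p below 0.05. The differences between replicates correlated at -0.19 between the conditions across 10557 genes. The sign of this value depends on how the replicates were numbered, so it cannot show whether libraries were paired. The sources used here do not say whether they were. With the replicate block limma called 0 members, 0 of all genes and 0 neighbours repressed. At an unadjusted limma p below 0.05 and a log2 fold change of -1 or less there were 42, 891 and 10. With the pairing crossed, chosen after seeing the data, limma called 0, 0 and 0, against 43, 884 and 7 at those unadjusted limits. The cause of these differences was not tested. The other alternatives left counts within 1.5 times. Homologs and promoter motifs were not examined. FPKM hold no counts, so what depth limits is unknown.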
